A study of Mus musculus with 6 samples.

Results

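Smooth muscle cells of the embryonic mouse aorta that lacked the Notch ligand Jag1 were compared with cells that kept 1 intact Jag1 allele. The comparison set 2 knockout libraries against 2 heterozygous libraries, 4 of the 6 libraries of the series, and its members were the genes whose scaled read count reached 10 in 2 or more of the 6 libraries. Of 37309 genes in the deposited table, 15781 met that limit. The 665 of them on chromosomes X and Y were left out of the description, which leaves 15116 genes. The scaled read count is the number of reads of a gene divided by 1 size factor for the library.

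All libraries were RNA of vascular smooth muscle cells taken from the descending aorta at embryonic day 14.5. Knockout libraries were Jag1 lox/lox with Cre recombinase, heterozygous libraries were Jag1 lox/+ with Cre, and wildtype libraries, given here only as values side by side, were Jag1 lox/lox without Cre. Knockout and heterozygous cells therefore both carried Cre and differed in the number of floxed alleles. By these genotypes, knockout differs from wildtype in Cre alone. Heterozygous differs from wildtype in Cre and in the number of floxed alleles. The labels name neither the promoter that drove Cre, nor the exons between the lox sites, nor the sex or number of embryos in a sample, nor whether cells were sorted or cultured, and nothing says that the 2 libraries of a group came from separate animals, so p-values measure only the spread between these samples.

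Jag1 is a membrane protein that binds Notch receptors on neighbouring cells. Binding leads to cleavage of the receptor, and the freed intracellular part enters the nucleus, joins the DNA-binding protein RBPJ and switches on genes such as the Hes and Hey repressors. In the artery wall this signal is known for its part in smooth muscle differentiation, and the title of the series sets it against Sox9, the transcription factor that starts the cartilage programme.

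The recovered reads in genes numbered 17323962 to 28123670 per library. Smooth muscle transcripts were abundant in all 6: Acta2, the smooth muscle actin, measured 90700 and 79070 in knockout, 104400 and 103200 in heterozygous and 120200 and 111100 in wildtype. Of 24 endothelial markers 13 were testable, and their list summed to 4805 to 6690 per library. Cdh5, the adhesion protein of endothelial cells, measured 8.52 to 13.4, whereas the receptors Kdr, Flt1 and Flt4 were far higher, as given below. Of 13 red blood cell markers none was testable off the sex chromosomes, and Hba-a1 and Hbb-b1 were at 0 in every library. Both of these globin genes have near-identical copies, so their reads are uncertain. Leukocyte genes were present in every library and at different levels in the 3 groups, as described below. The 2 knockout libraries differed from each other more than the others did: the mean chi-square per gene against counting error was 24.9 in knockout, 3.83 in heterozygous and 5.19 in wildtype, and 636 tested genes were over 2-fold apart between the knockout libraries against 266 between the heterozygous ones. Transcripts of the Y chromosome were nearly absent from the knockout libraries alone, with Ddx3y at 5.44 and 12.2 against 974 and 999 in heterozygous and 1102 and 1207 in wildtype. No rise of like size was seen in the list of 10 genes on X and Y. Their log2 changes of knockout over heterozygous ran from -7.11 to 0.66. The sex of the embryos and the Jag1 genotype cannot be told apart in this comparison, also for genes on the other chromosomes. RNA was bulk, so fewer cells of a type and less RNA per cell cannot be told apart either.

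Jag1 itself (ENSMUSG00000027276, chromosome 2) measured 19.9 and 35.4 in knockout, 492 and 584 in heterozygous and 1965 and 1885 in wildtype. The knockout level was 5.15% of heterozygous, and the 2 groups lay far apart. The log2 change was -4.28 ± 0.23 (SE, n = 2 per group), with an adjusted p of 3.91e-06 in limma over all tested genes. The call held under all 18 alternative settings, with log2 changes from -4.68 to -3.88. In the same way as for Jag1, every change below is knockout over heterozygous on the scale log2(scaled count + 1), and "passed" means a Benjamini-Hochberg adjusted p under 0.05 in that fit.

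Of the 15116 genes, 657 rose (4.35%) and 1236 fell (8.18%) in knockout against heterozygous, and 12.5% passed in either direction. Counts of list members below are to be read beside these shares. Falls were larger than rises: 687 genes fell and 169 rose at least 2-fold, 298 fell and 26 rose at least 4-fold, and 48 fell and 1 rose at least 8-fold. The median log2 change was -1.13 among genes that fell, 0.68 among genes that rose and 0.00 over all tested genes. In all 1893 genes that passed, the knockout libraries were both above or both below the heterozygous ones, a pattern also found in 50.4% of all tested genes. Fits without a knockout or heterozygous library, here and below, hold 1 sample of that group, assumed to vary like the other groups. The knockout pair scattered most, and a fit with 1 knockout library does not hold that scatter. Counts leaned on single libraries: without heterozygous replicate 1 or 2, 169 or 204 genes rose and 616 or 634 fell, whereas without knockout replicate 1 or 2, 1195 or 2641 rose and 1960 or 2795 fell. Without wildtype replicate 1 or 2, which do not enter the difference itself, 372 rose in each case and 955 or 951 fell. In the authors' deposited table, 1451 of the tested genes had an adjusted p under 0.05 for this comparison, and 1437 of these passed here too.

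**Figure D1:**
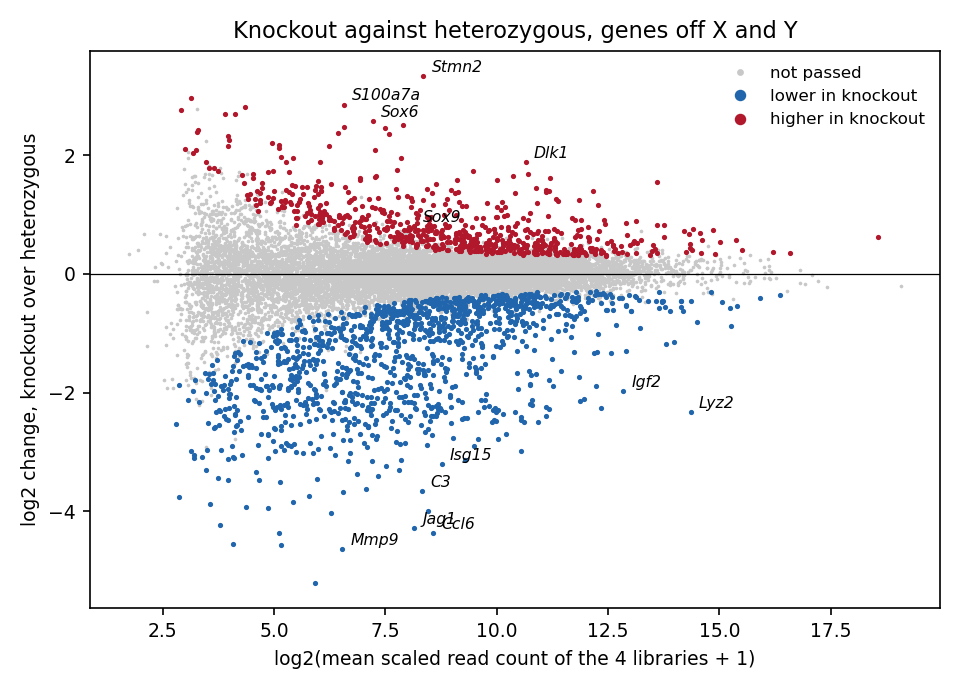
Each point is 1 of the 15116 genes off X and Y, with the log2 of the mean scaled read count of the 4 libraries on the x axis and the log2 change of knockout over heterozygous on the y axis. The 1236 genes that fell reach further from 0 than the 657 that rose, with Mmp9 at -4.63 and Stmn2 at 3.33.

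The lowest changes were mostly those of genes of immune cells and of the interferon response. The matrix protease Mmp9 measured 13.6 and 2.44 in knockout, 173 and 177 in heterozygous and 94.4 and 76.3 in wildtype (-4.63 ± 0.53, adjusted p = 0.000377). Ccl6, a chemokine of myeloid cells in mice, measured 31.7 and 36.7, then 692 and 756, then 158 and 174 (-4.37 ± 0.15, adjusted p = 1.08e-06). For Mmp9 and Ccl6 the heterozygous libraries were the highest of the 3 groups, the wildtype libraries lay between and the knockout libraries were the lowest. Jag1, also among the lowest, was highest in wildtype. The order of Mmp9 and Ccl6 held for the chemokines Cxcl9, Ccl5 and Ccl12, the antiviral genes Oas2, Oas3 and Zbp1, haptoglobin (Hp), which binds free haemoglobin, and complement component C3. Hp measured 45.3 and 35.4 in knockout, 755 and 571 in heterozygous and 93.7 and 98.2 in wildtype, and C3 measured 47.1 and 44, then 564 and 614, then 141 and 135.

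**Figure D2:**
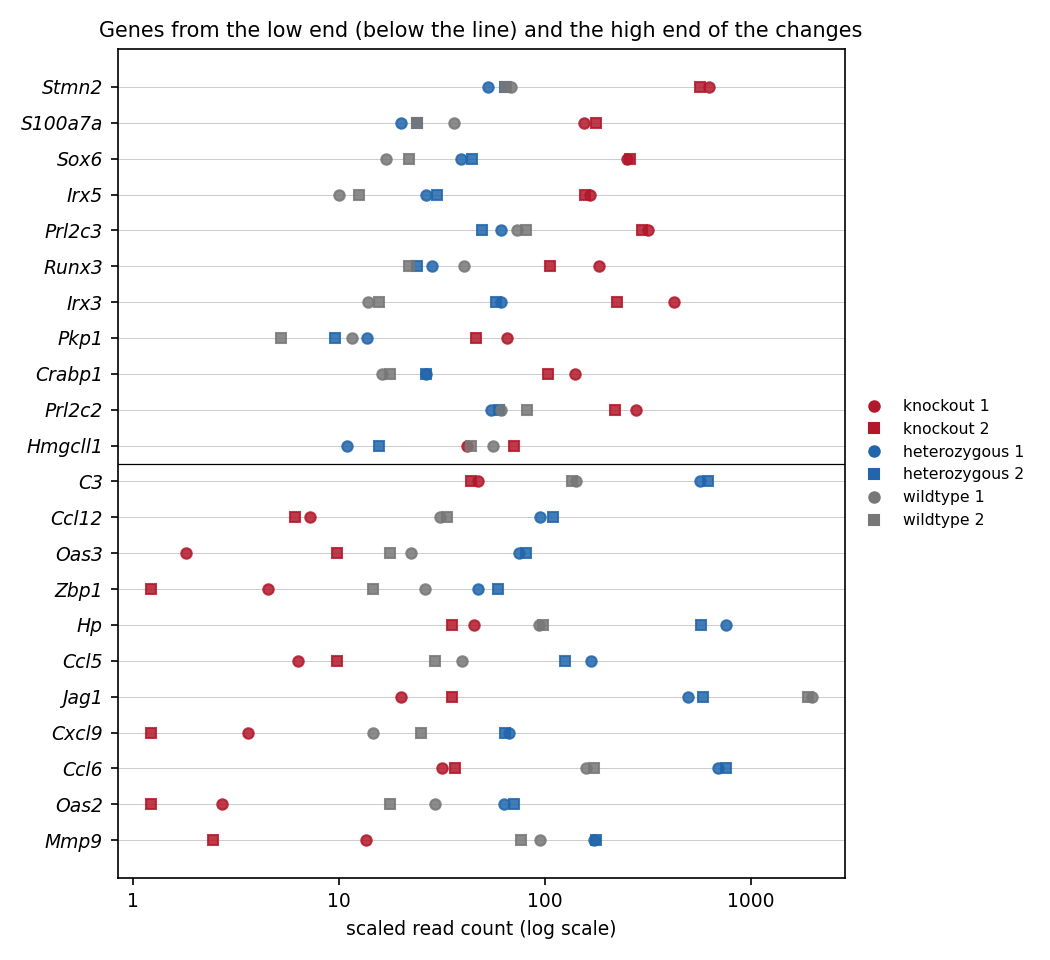
Scaled read counts (log x axis) of 11 genes from the low end and 11 from the high end of the log2 changes of knockout over heterozygous, among genes that passed; each mark is 1 library. In the genes below the line both knockout libraries (red) lie left of both heterozygous libraries (blue), and in those above it they lie right of them.

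Leukocyte transcripts fell together in the knockout libraries. Of 29 tested markers, 28 fell, none rose in limma, edgeR or DESeq2 or at an unadjusted p under 0.05, and Lyve1, a receptor of lymphatic cells and some macrophages, did not pass (11.8 and 17.1 in knockout, 14.6 and 21.6 in heterozygous), against 8.18% of all genes that fell. The list's median log2 change was -2.30. Its summed scaled count, over 31 genes, was 18789 and 18271 in knockout, 92104 and 87179 in heterozygous and 45713 and 46450 in wildtype, so wildtype lay between the other groups. Lyz2, the lysozyme of macrophages and neutrophils, measured 6734 and 7141 in knockout, 36820 and 33210 in heterozygous and 15910 and 16930 in wildtype (-2.33 ± 0.09, adjusted p = 1.13e-06), though its reads may be shared with the near-identical Lyz1. Ptprc, the pan-leukocyte surface protein CD45, measured 114 and 170 in knockout, 657 and 707 in heterozygous and 395 and 437 in wildtype (-2.28 ± 0.18, adjusted p = 3.02e-05). Csf1r, the receptor that macrophages need to survive, measured 1081 and 1003, then 3848 and 3849, then 2171 and 2084 (-1.89 ± 0.09, adjusted p = 2.06e-06). Macrophage genes with other roles fell by like amounts: the mannose receptor Mrc1 by 2.78, Emr1 (the F4/80 antigen) by 2.70, the complement subunits C1qa, C1qb and C1qc by 2.50, 2.39 and 2.49, and the pore-forming protein Mpeg1 by 2.27 on the log2 scale. Cx3cr1, the fractalkine receptor, departed from that order of groups, with 61.6 and 55 in knockout, 191 and 130 in heterozygous and 228 and 189 in wildtype. The count of lower markers was 26 to 28 under the 18 alternatives and 28 without any single library.

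Genes of the interferon response fell as a group as well. Of 40 tested, 36 fell in limma and edgeR and 34 in DESeq2, and 0 rose with these tools or at an unadjusted p under 0.05. The median log2 change was -2.24, and the 4 that did not pass were Ifit2, Mx1, Oasl1 and Tap2, with log2 changes from -1.92 for Oasl1 to -0.17 for Ifit2. Isg15, a ubiquitin-like protein made after interferon, measured 95.2 and 74.5 in knockout, 774 and 792 in heterozygous and 296 and 266 in wildtype (-3.20 ± 0.15, adjusted p = 1.96e-06). Ifit1, which binds foreign RNA, measured 88.8 and 75.8 in knockout, 640 and 582 in heterozygous and 163 and 142 in wildtype (-2.88 ± 0.15, adjusted p = 3.67e-06). Oas3, an enzyme that senses double-stranded RNA, measured 1.81 and 9.78, then 74.8 and 80.6, then 22.4 and 17.8 (-3.84 ± 0.55, adjusted p = 0.00141), and the knockout values rest on 2 and 8 reads. In each of these genes no library of one group reached a library of another, and heterozygous was highest. Of the transcription factors that carry the interferon signal, Irf7 changed by -2.44 ± 0.23, Stat2 by -1.57 ± 0.10 and Irf9 by -1.44 ± 0.10. Among antigen presentation genes, the immunoproteasome subunit Psmb8 changed by -2.44, beta-2 microglobulin (B2m) by -0.58 and the peptide transporter subunit Tap1 by -0.46. Tap2, the partner of Tap1, did not pass, at -0.39. Its change was -0.48 without knockout replicate 1 and -0.30 without replicate 2. The calls on B2m and Tap1 were lost without either heterozygous library (adjusted p = 0.165 and 0.146, and 0.297 and 0.138) or either wildtype library (0.0512 and 0.0510, and 0.0921 and 0.0923), while the list's count of lower genes was 32 to 38 under the alternatives. The summed count of the list, over 41 genes, was 21711 and 17345 in knockout, 40425 and 40750 in heterozygous and 24403 and 23232 in wildtype. Leukocyte markers fell in the same libraries, and their part in the interferon result was not tested.

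The promoters of 3 lower interferon genes are shown with their matches to the interferon response element. The interferon response element was searched as GAAANNGAAA on both strands in the 250 bases before and 50 bases after each start site of RefSeq annotation on GRCm38.p6. The motif was chosen after the values were seen. Of 28 lower genes of the list with a promoter in that table, 18 held it (64.3%). All 30 tested genes of the list with an entry gave a like share (60.0%). The share was 3.44% of all 32851 promoters, 3.84% of tested genes with an entry, 10.3% of the genes that fell and 4.56% of those that rose. The list was made of interferon response genes, and a link between the element and the falls was not tested. Capitals mark the matches in 3 of the lower genes, on chr4:156200769-156201068 (minus strand) for Isg15, chr19:34640639-34640938 (plus strand) for Ifit1 and chr5:120777610-120777909 (minus strand) for Oas3, each read 5′ to 3′ along the gene.
Isg15: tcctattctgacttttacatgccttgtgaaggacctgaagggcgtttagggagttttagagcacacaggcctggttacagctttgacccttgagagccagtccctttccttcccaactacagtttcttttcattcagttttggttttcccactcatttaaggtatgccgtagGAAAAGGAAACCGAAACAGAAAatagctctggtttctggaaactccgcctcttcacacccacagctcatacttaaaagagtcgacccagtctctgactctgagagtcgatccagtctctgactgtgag
Ifit1: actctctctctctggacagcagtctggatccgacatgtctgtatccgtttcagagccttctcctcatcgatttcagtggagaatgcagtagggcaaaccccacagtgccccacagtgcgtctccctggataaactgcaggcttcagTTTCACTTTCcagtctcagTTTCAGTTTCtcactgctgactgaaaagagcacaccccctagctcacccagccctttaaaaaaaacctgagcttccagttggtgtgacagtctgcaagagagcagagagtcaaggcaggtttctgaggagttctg
Oas3: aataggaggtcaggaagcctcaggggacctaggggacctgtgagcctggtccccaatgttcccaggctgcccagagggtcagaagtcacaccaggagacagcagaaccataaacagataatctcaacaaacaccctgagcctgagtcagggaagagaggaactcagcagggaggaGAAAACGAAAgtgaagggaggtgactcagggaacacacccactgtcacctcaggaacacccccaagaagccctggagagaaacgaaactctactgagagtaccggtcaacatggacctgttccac
In Isg15, 3 matches overlap and begin 78 bases before the start, Ifit1 holds 2 separate matches on the opposite strand, and Oas3 holds 1. By symbol, 9432 of the 15116 tested genes matched the table. The RBPJ core was searched as TGGGAA on both strands, and a gene counted if any of its promoters held it. It was in 29.3% of genes that fell, 28.0% of those that rose and 26.6% of all tested genes with an entry. Counted by promoter, it was in 25.6% of all promoters. Of the tested Notch targets, 9 had an entry and 1 held the RBPJ core (11.1%). Of the tested Notch ligands, receptors and modifiers, 31 had an entry and 10 held it (32.3%). A link between the RBPJ core and the changes was not tested.

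Of 36 tested cytokine, chemokine and complement genes, 22 fell and 2 rose. In 16 of the 36 the libraries lay, with no overlap, lowest in knockout, then in wildtype and highest in heterozygous, an order found in 6.55% of all tested genes. Their median log2 change was -1.78. Of the chemokine genes on chromosome 11, Ccl2, which attracts monocytes, measured 703 and 549 in knockout, 2711 and 2954 in heterozygous and 2180 and 2035 in wildtype (-2.19 ± 0.13, adjusted p = 5.29e-06). Ccl9 measured 134 and 120, then 1101 and 1143, then 344 and 394 (-3.14 ± 0.12, adjusted p = 1.13e-06). Ccl3, Ccl4 and Ccl7 changed by -2.72 ± 0.28, -2.80 ± 0.19 and -2.16 ± 0.14. The wildtype counts of Ccl2 lay below the heterozygous ones but closer to them than to the knockout counts, whereas those of Ccl9 lay closer to knockout. Il6, a cytokine that smooth muscle also makes, measured 76.1 and 130 in knockout, 282 and 320 in heterozygous and 369 and 409 in wildtype (-1.59 ± 0.22), and Il1r1, the interleukin-1 receptor, measured 641 and 656, then 1532 and 1516, then 1306 and 1380 (-1.23 ± 0.09). Csf1, the ligand of Csf1r, fell from 51200 and 50920 to 37770 and 32340 (-0.55 ± 0.10, adjusted p = 0.00698), a call lost without either heterozygous library (0.0954 and 0.0862). The 2 genes that rose were Il1rl1, the interleukin-33 receptor, from 1148 and 1107 to 2282 and 2300 (1.02 ± 0.09, adjusted p = 6.47e-05), and Cxcl12 (0.36 ± 0.08, adjusted p = 0.0183), a call lost without either heterozygous library (0.19 and 0.147) or either wildtype library (0.0681 and 0.0686). The part of the leukocyte markers in these falls was not tested.

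For the immune lists the values against wildtype, which share the heterozygous or knockout libraries with the comparison described, are given side by side. In heterozygous over wildtype the median log2 change was 0.86 for leukocyte markers, of which 25 of 29 rose, and 1.04 for interferon genes, of which 29 of 40 rose, against 5.35% of all tested genes that rose and 2.72% that fell. In knockout over wildtype the medians were -1.39, with 29 of 29 lower, and -1.02, with 28 of 40 lower, against 7.18% of all tested genes that fell and 5.4% that rose. The summed levels plotted by library show the 3 groups in full.

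**Figure D3:**
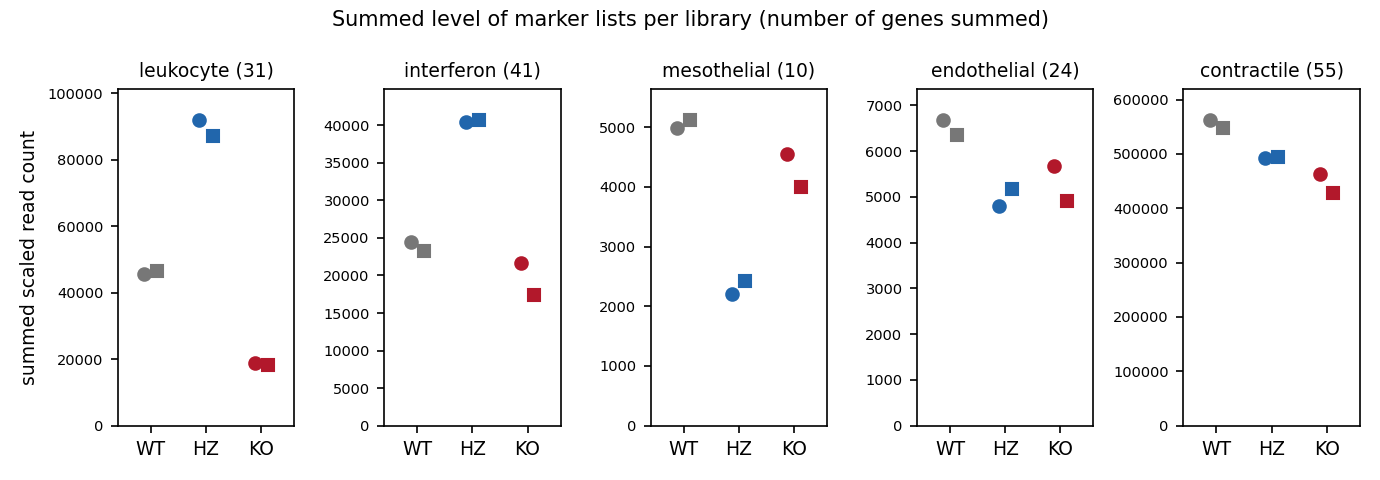
Summed scaled read count (y axis, from 0) of 5 gene lists in each library, by group (WT wildtype, HZ heterozygous, KO knockout; circles replicate 1, squares replicate 2), with the number of genes summed in each title. Leukocyte sums were 18789 and 18271 in knockout and 92104 and 87179 in heterozygous, and mesothelial sums were lowest in heterozygous.

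The highest changes belonged to genes of varied function. Stmn2, a regulator of microtubules best known from neurons, measured 625 and 563 in knockout, 52.9 and 63.7 in heterozygous and 68.1 and 64.8 in wildtype, the 1 gene that rose over 8-fold (3.33 ± 0.16, adjusted p = 2.62e-06). S100a7a, a calcium-binding protein of the S100 family, measured 154 and 176, then 20.1 and 24.1, then 36.4 and 24 (2.85 ± 0.26, adjusted p = 8.06e-05). In Stmn2 and S100a7a the heterozygous and wildtype libraries were close together and far below knockout. Hmgcll1, an enzyme related to HMG-CoA lyase, measured 41.7 and 70.9 in knockout and 10.9 and 15.6 in heterozygous, and the wildtype values of 55.7 and 43.9 lay within the knockout range. The desmosome protein Pkp1 and the proliferins Prl2c2 and Prl2c3 rose by 2.17 ± 0.42, 2.08 ± 0.20 and 2.46 ± 0.17, and the latter pair belong to a family of near-identical genes whose reads are uncertain. The calls on Hmgcll1 and Pkp1 were lost without heterozygous replicate 1 (adjusted p = 0.0518) and replicate 2 (adjusted p = 0.0949), respectively, with ranges of 6.12e-06 to 0.0518 and 0.000588 to 0.0949 over the alternatives.

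Transcription factors that set position in the embryo were among the genes that rose. Of 45 tested patterning genes other than the Hox clusters, 12 rose and 5 fell. Irx3 and Irx5, neighbouring homeobox genes of the Iroquois family on chromosome 8, both rose. Irx3 measured 421 and 224 in knockout, 61.1 and 57.7 in heterozygous and 13.9 and 15.7 in wildtype (2.35 ± 0.28, adjusted p = 0.000503). Irx5 measured 165 and 156, then 26.5 and 30.1, then 10.1 and 12.5 (2.47 ± 0.24, adjusted p = 0.000131). Both were thus lowest in wildtype and highest in knockout. Lhx9, a LIM homeobox factor, measured 548 and 535 in knockout, 207 and 215 in heterozygous and 232 and 202 in wildtype (1.35 ± 0.13, adjusted p = 9.11e-05), and the nuclear receptor Nr2f2, a factor known for vein identity, measured 2375 and 2070, then 1423 and 1354, then 1395 and 1315 (0.68 ± 0.10, adjusted p = 0.00182). Retinoic acid genes moved in both directions: the binding protein Crabp1 rose from 26.5 and 26.4 to 140 and 104 (2.15 ± 0.25), while the synthetic enzymes Aldh1a2 and Aldh1a3 changed by -1.24 ± 0.17 and -0.85 ± 0.11. Of 25 tested Hox genes 4 rose (Hoxa5, Hoxc4, Hoxc5 and Hoxb8), with log2 changes of 0.49 to 0.79, and none fell in limma, edgeR or DESeq2 or at an unadjusted p under 0.05. Without either heterozygous library 0 Hox genes rose, without either wildtype library 1 rose, and without knockout replicate 2 16 rose.

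Sox9 (ENSMUSG00000000567, chromosome 11) rose, but its knockout libraries were far apart. Its scaled counts were 464 and 268 in knockout, 214 and 188 in heterozygous and 232 and 236 in wildtype, so both knockout values were above the 4 others. The log2 change was 0.81 ± 0.22, with an adjusted p of 0.0458, and 11 of 18 alternatives kept the call. Leaving out knockout replicate 1 gave a change of 0.41, and leaving out replicate 2 gave 1.21. The call was lost without heterozygous replicate 1 or 2 (adjusted p = 0.181 and 0.295) and without wildtype replicate 1 or 2 (0.0946 and 0.0943), in a range of 8.97e-08 to 0.295.

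Among 20 tested transcription factors of the cartilage lineage, 4 rose and 1 fell, against 4.35% and 8.18% of all tested genes. Their median log2 change was 0.29. Sox6, which works with Sox9 in chondrocytes, changed more than Sox9 and with close replicates: 250 and 259 in knockout, 39.2 and 44.5 in heterozygous and 17 and 21.9 in wildtype (2.58 ± 0.21, adjusted p = 4.24e-05). Its relative Sox5 measured 59.8 and 64.8, then 33.8 and 52.9, then 10.8 and 23, and did not pass (0.55 ± 0.37, adjusted p = 0.405). Sox6 thus passed without an overlap of groups, and Sox5 had the same order of groups without passing. Runx3, a Runt factor active in cartilage and immune cells, measured 183 and 106 in knockout, 28.3 and 24.1 in heterozygous and 40.2 and 21.9 in wildtype (2.38 ± 0.34, adjusted p = 0.00154), and Pax1, a regulator of the sclerotome from which vertebrae form, measured 249 and 204, then 106 and 106, then 85.9 and 74.2 (1.08 ± 0.17, adjusted p = 0.00248). Runx1, which fell, measured 1257 and 1034, then 1784 and 1855 (-0.67 ± 0.11, adjusted p = 0.00313), and its call was lost without heterozygous replicate 2 (adjusted p = 0.0604, in a range of 2.69e-08 to 0.0604). Runx2, the bone regulator, did not pass, with 900 and 802 in knockout and 683 and 761 in heterozygous. Its change was 0.15 without knockout replicate 1 and 0.32 without replicate 2. The list's count of higher genes was 3 or 4 without a heterozygous or wildtype library, 6 without the first knockout replicate and 11 without the second.

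**Figure D4:**
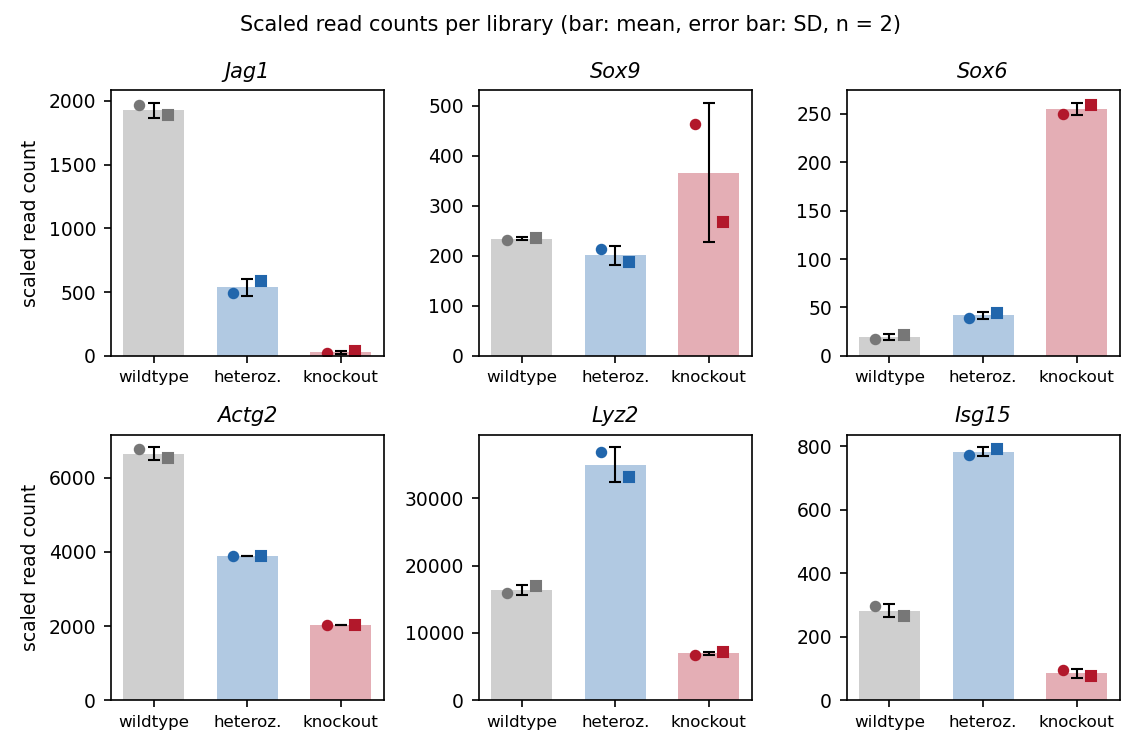
Scaled read counts (y axis, from 0) of 6 genes in the 6 libraries; bars are means of 2 libraries, error bars their SD, circles replicate 1 and squares replicate 2. Knockout is highest for Sox6 (250 and 259) and its 2 libraries are far apart for Sox9 (464 and 268); Lyz2 and Isg15 are highest in heterozygous, and Jag1 and Actg2 fall from wildtype to knockout.

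Genes of cartilage matrix moved in both directions. Of 17 tested, 6 rose, 2 fell and 9 did not pass, and 12 further members were below the limit, among them Col9a1, Col9a2 and Matn1. Col2a1, the main collagen of cartilage, measured 272 and 236 in knockout, 153 and 135 in heterozygous and 61.9 and 60.6 in wildtype (0.81 ± 0.16, adjusted p = 0.00874). Comp, a matrix protein of cartilage and tendon, measured 139 and 115, then 63 and 64.9, then 5.42 and 6.27 (0.97 ± 0.24, adjusted p = 0.0292). Pcolce2, an enhancer of procollagen processing, measured 474 and 440, then 247 and 225, then 176 and 163 (0.95 ± 0.13, adjusted p = 0.000979). In all 3 genes the order was wildtype, heterozygous, knockout, with no overlap. That order held for 5 of the 17 and for 4.72% of all tested genes. Matn3 and the lubricin gene Prg4 rose by 1.05 ± 0.24 and 1.13 ± 0.24, and Papss2, which makes the sulfate donor for proteoglycans, by 0.52 ± 0.10. Prg4 rose from 625 and 613 in heterozygous to 1883 and 980 in knockout. The 2 that fell were Acan, the core protein of aggrecan, which measured 21.8 and 15.9, then 63.9 and 44.5 (-1.47 ± 0.38, adjusted p = 0.0329), and Prelp, which measured 1331 and 818, then 1684 and 1804 (-0.74 ± 0.19, adjusted p = 0.0341). Without heterozygous replicate 1 or 2 the counts were 1 or 2 higher and 0 lower. The call on Col2a1 was then lost (adjusted p = 0.0578 and 0.115, in a range of 0.000296 to 0.115), and so was that on Comp (0.199 and 0.175), which was also lost without knockout replicate 1 (0.0907, in a range of 0.00742 to 0.199). Matn3, Prg4, Acan and Prelp lost theirs without either heterozygous library too, with adjusted p from 0.104 to 0.28, Papss2 without heterozygous replicate 1 (0.119), and Prelp also without either wildtype library (0.0714 and 0.0713), while Pcolce2 kept its call in all 18 alternatives.

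Of 18 tested genes of hypertrophic cartilage and bone, 5 rose and 4 fell. Col10a1, which encodes the collagen of hypertrophic chondrocytes, fell from 937 and 1015 in heterozygous to 390 and 461 in knockout, with 1389 and 1555 in wildtype (-1.20 ± 0.12, adjusted p = 0.000132). Mgp, an inhibitor of vascular calcification, measured 27030 and 28430 in knockout, 52820 and 48920 in heterozygous and 23600 and 23610 in wildtype (-0.87 ± 0.09, adjusted p = 0.000133). Mmp13, a collagenase of cartilage, measured 296 and 417, then 1092 and 1154, then 357 and 349 (-1.67 ± 0.15). Mgp and Mmp13 were highest in heterozygous, with wildtype and knockout at like levels. The homeobox factor Msx2 rose from 232 and 232 to 610 and 439 (1.15 ± 0.16, adjusted p = 0.00114), and Ank, which exports the calcification inhibitor pyrophosphate, rose from 5528 and 5543 to 7419 and 7336 (0.41 ± 0.08, adjusted p = 0.00797). Spp1, Sp7 and Dlx5 rose by 0.40, 0.94 and 1.21. Without either heterozygous library Msx2 was the 1 gene of the list that rose, and the calls on Ank, Spp1, Sp7 and Dlx5 were lost, with adjusted p from 0.101 to 0.299. Spp1 and Dlx5 also lost theirs without a wildtype library (0.0637 to 0.0721) and Dlx5 without knockout replicate 1 (0.0684).

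Among 14 tested tendon and sclerotome genes 5 rose and 1 fell. Eya1, a cofactor of homeobox proteins, measured 343 and 315 in knockout, 188 and 171 in heterozygous and 141 and 113 in wildtype (0.87 ± 0.15, adjusted p = 0.0051). Six2 measured 130 and 75.8, then 24.6 and 27.6, then 13.2 and 9.41 (1.89 ± 0.33, adjusted p = 0.00441), and Eya2 measured 52.6 and 46.4, then 13.7 and 7.21, then 1.55 and 1.04 (2.20 ± 0.46, adjusted p = 0.0118). The tendon factor Scx measured 97 and 77, then 42.9 and 49.3, then 15.5 and 16.7 (0.90 ± 0.24, adjusted p = 0.0403). Each of these 4 was lowest in wildtype and highest in knockout. Egr2, which acts in tendon and in Schwann cells, fell from 272 and 236 to 131 and 86.8 (-1.24 ± 0.20, adjusted p = 0.00267). Without heterozygous replicate 1 or 2 the count of higher tendon and sclerotome genes was 2 or 1, with Six2 and Egr2 lost without replicate 1 (adjusted p = 0.0608 and 0.0566) and Eya1 and Eya2 without replicate 2 (0.0795 and 0.111). Scx lost its call without any 1 of the 6 libraries except knockout replicate 2, with adjusted p from 0.0733 to 0.264.

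Contractile genes of smooth muscle fell more often than they rose. Of 50 tested, 12 fell and 3 rose, against 8.18% and 4.35% of all tested genes. The median log2 change was -0.23, with 41 of 50 below 0. Actg2, the enteric form of smooth muscle actin, measured 2016 and 2020 in knockout, 3884 and 3892 in heterozygous and 6771 and 6525 in wildtype (-0.95 ± 0.08, adjusted p = 5.45e-05). Mylk, the kinase that starts contraction by phosphorylating myosin light chain, measured 2125 and 1811, then 4845 and 4927, then 5136 and 4974 (-1.32 ± 0.10, adjusted p = 2.16e-05). Gucy1b3, a subunit of the nitric oxide receptor, measured 74.3 and 90.4, then 180 and 160, then 380 and 419 (-1.04 ± 0.16, adjusted p = 0.00196). Actg2 and Gucy1b3 fell in steps from wildtype to knockout, whereas Mylk was at like levels in wildtype and heterozygous. The smooth muscle myosin heavy chain Myh11 measured 1757 and 1653, then 2193 and 2222, then 3851 and 3512 (-0.37 ± 0.09, adjusted p = 0.0259), and the light chain Myl9 measured 10610 and 12140, then 17310 and 16000, then 18390 and 17160 (-0.55 ± 0.10, adjusted p = 0.00493). Several of the defining transcripts did not pass: Acta2, with the values given above, had a log2 change of -0.29 ± 0.10 (adjusted p = 0.104), Cnn1, the actin-binding calponin, of -0.31 ± 0.09 (0.0528), Tagln of -0.16 ± 0.09 (0.319) and Des, the intermediate filament desmin, of -0.15 ± 0.10 (0.435). Cnn1 passed with quantile normalization (0.0231), and its change was -0.40 without knockout replicate 1 and -0.22 without replicate 2. Acta2 passed with quantile normalization (0.0379), and its change was -0.39 without knockout replicate 1 and -0.19 without replicate 2. Des measured 924 and 814 in knockout, 974 and 944 in heterozygous and 5720 and 5098 in wildtype, so the groups with Cre were alike in level and far below wildtype. The 3 that rose were Rgs5 and Rgs4, regulators of G protein signals that mark pericytes and arterial muscle, by 1.13 ± 0.17 and 1.00 ± 0.18, and the synuclein Sncg by 1.43 ± 0.24. Rgs4 and Sncg lost their calls without heterozygous replicate 2 (adjusted p = 0.0757 and 0.0640).

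The count of lower contractile genes depended on the libraries. It was 28 or 15 without knockout replicate 1 or 2, 4 or 5 without heterozygous replicate 1 or 2, and 7 without either wildtype library. Actg2, Mylk, Gucy1b3 and Aoc3, an amine oxidase of smooth muscle that measured 157 and 130 in knockout and 470 and 440 in heterozygous, kept their calls in all 18 alternatives. Myh11 lost its call without either heterozygous library (adjusted p = 0.188 and 0.209) and without either wildtype library (0.0700 and 0.0700), in a range of 0.000457 to 0.209, and Myl9 lost it without heterozygous replicate 1 (0.0977, in a range of 3.92e-07 to 0.0977). Of 25 tested regulators of smooth muscle genes 1 rose and 3 fell, against 4.35% and 8.18% of all tested genes. Klf5, a Kruppel-like factor, rose from 276 and 313 to 960 and 599 (1.37 ± 0.22, adjusted p = 0.0028). Fhl5, a LIM protein, fell from 74.8 and 99.8 to 19 and 13.4, with 10.8 and 11.5 in wildtype (-2.36 ± 0.31, adjusted p = 0.000787), and Hand2 and Mef2a changed by -1.84 ± 0.32 and -0.35 ± 0.09. Klf5, Hand2 and Mef2a lost their calls without heterozygous replicate 1 (0.0552, 0.0809 and 0.133), and Mef2a also without heterozygous replicate 2 (0.271) or either wildtype library (0.0836 and 0.0838). Myocd, the cofactor that drives smooth muscle genes with serum response factor, measured 20.9 and 30.6, then 32.8 and 36.1, then 62.7 and 66.9 and did not pass (-0.43 ± 0.26, adjusted p = 0.35).

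The CArG box, the 10-base site of serum response factor, is shown for the promoter of Myl9 because it was the 1 match among the 8 lower contractile genes with an entry. The box was in 12.5% of those 8, 15.0% of 40 tested contractile genes with an entry and 1.63% of all promoters. Among all tested genes with an entry, 1.92% of those that fell and 3.64% of those that rose held it. A link between the box and the falls was not tested. The Myl9 promoter lies on chr2:156775214-156775513 of GRCm38.p6, plus strand, from RefSeq, and capitals mark the CArG box, which begins 161 bases before the start.
Myl9: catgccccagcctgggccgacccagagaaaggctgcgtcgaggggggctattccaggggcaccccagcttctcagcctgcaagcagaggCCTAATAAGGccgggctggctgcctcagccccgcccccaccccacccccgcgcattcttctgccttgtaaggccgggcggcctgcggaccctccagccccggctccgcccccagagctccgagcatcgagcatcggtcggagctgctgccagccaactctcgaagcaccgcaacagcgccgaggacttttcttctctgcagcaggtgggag
No match in such a window says nothing of sites elsewhere.

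Of 36 tested Notch ligands, receptors and modifiers, 1 rose and 2 fell, 1 of them Jag1, against 4.35% and 8.18% of all tested genes. The median log2 change was -0.10, and 13 of the 36 had an unadjusted p under 0.05, as did 25.4% of all tested genes. The receptors did not pass: Notch1 measured 502 and 463 in knockout and 521 and 493 in heterozygous (-0.07 ± 0.13, adjusted p = 0.785), Notch2 measured 3798 and 3405 against 3883 and 3980 (-0.13 ± 0.09, adjusted p = 0.45), and Notch3, the receptor typical of arterial smooth muscle, measured 346 and 250 against 421 and 403 (-0.48 ± 0.17, adjusted p = 0.103). For Notch3 both knockout values were below both heterozygous ones. Its change was -0.71 without knockout replicate 1 and -0.25 without replicate 2. Lfng, a glycosyltransferase that tunes how Notch answers its ligands, fell from 278 and 275 to 171 and 131, near the 184 and 182 of wildtype (-0.88 ± 0.16, adjusted p = 0.00523), and lost its call without heterozygous replicate 1 or 2 (0.0755 and 0.0676). Dlk1, a membrane protein related to the ligands, rose from 712 and 648 to 2869 and 2203, with 205 and 188 in wildtype (1.89 ± 0.14, adjusted p = 2.07e-05).

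Of 17 tested Notch targets 3 rose and 2 fell, Jag1 among the latter, against 4.35% and 8.18% of all tested genes. Their median log2 change was 0.25. The classical effectors did not pass, and the changes of Hes1 and Hey2 depended on the knockout libraries. Hes1 measured 1302 and 1053 in knockout, 970 and 996 in heterozygous and 1129 and 1114 in wildtype (0.25 ± 0.11, adjusted p = 0.207), and Hey2 measured 69.8 and 57.4, then 42 and 36.1, then 82 and 93 (0.69 ± 0.21, adjusted p = 0.0671). Without knockout replicate 2 the changes of Hes1 and Hey2 were 0.41 and 0.83, and without replicate 1 they were 0.10 and 0.55. Hey2 passed with quantile normalization (adjusted p = 0.0242). Hey1 and Heyl measured 40.8 and 47.7 against 44.7 and 28.9, and 1.81 and 3.67 against 2.74 and 1.2. Heyl passed the limit only through its wildtype values of 15.5 and 18.8, and both groups with Cre were near the floor of a few reads. Dtx4, a Deltex ubiquitin ligase, fell from 522 and 428 to 243 and 252 (-0.93 ± 0.13, adjusted p = 0.00119). Ccnd1, a cyclin of cell cycle entry, rose from 6013 and 6097 to 9931 and 9235, with 4456 and 4423 in wildtype (0.66 ± 0.08, adjusted p = 0.000578), and Snai2 and Gata2 rose by 0.52 ± 0.13 and 0.63 ± 0.16, calls lost without any 1 of the heterozygous or wildtype libraries (adjusted p = 0.0665 to 0.247).

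Elastic fibre genes, which give the aorta its recoil, were split. Of 23 tested, 7 fell and 5 rose. Efemp1, a fibulin, rose from 3029 and 3055 in heterozygous to 6770 and 6891 in knockout, with 1763 and 1899 in wildtype (1.17 ± 0.08, adjusted p = 1.91e-05). Adamtsl4, which binds fibrillin, rose from 504 and 506 to 1131 and 838 (0.95 ± 0.15, adjusted p = 0.00225). Loxl2, an enzyme that crosslinks elastin and collagen, fell from 9783 and 10200 to 6652 and 6300, with 29150 and 28840 in wildtype (-0.63 ± 0.08, adjusted p = 0.000787). Efemp1 thus rose and Loxl2 fell in 2 steps from wildtype. Mfap5, a component of microfibrils, fell from 2464 and 2521 to 1189 and 1264, with 2274 and 2221 in wildtype (-1.02 ± 0.09, adjusted p = 5.34e-05), whereas Mfap4 and Fbln1 were highest in heterozygous, at 1011 and 974 and at 905 and 797, and changed by -1.57 ± 0.15 and -1.35 ± 0.13. Elastin itself, Eln, measured 58 and 19.6 in knockout, 109 and 84.2 in heterozygous and 119 and 116 in wildtype (-1.47 ± 0.41, adjusted p = 0.0449), and 9 of 18 alternatives kept that call, which was lost without either heterozygous library (0.299 and 0.168) or either wildtype library (0.0909 and 0.0899). Leaving out knockout replicate 1 gave a change of -2.23, and leaving out replicate 2 gave -0.71.

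Of 38 tested interstitial collagens and small proteoglycans, 14 fell, 3 rose and 21 did not pass. Postn, an adhesive matrix protein, measured 4419 and 4458 in knockout, 10870 and 10950 in heterozygous and 15160 and 16900 in wildtype (-1.30 ± 0.09, adjusted p = 1.22e-05). Thbs2, an antiangiogenic thrombospondin, measured 10020 and 10300, then 22370 and 22570, then 19490 and 20270 (-1.15 ± 0.08, adjusted p = 1.65e-05). Col3a1, a fibrillar collagen of vessel walls, measured 4752 and 4577, then 8710 and 8211, then 8993 and 9709 (-0.86 ± 0.09, adjusted p = 0.000139). These 3 were close between the libraries of a group, and knockout was the lowest group in each. The proteoglycans Dcn and Lum, which bind collagen fibrils, fell from 2237 and 2290 to 646 and 535 (-1.94 ± 0.11) and from 535 and 533 to 122 and 144. Lum was as low in wildtype, at 128 and 140, and Dcn measured 1164 and 1222 there. Fn1, the gene of fibronectin, measured 518200 and 418800, then 291100 and 312900 (0.63 ± 0.13, adjusted p = 0.0117). It lost its call without heterozygous replicate 1 or 2 (log2 changes of 0.57 and 0.68). The call on Fn1 was also lost with no filter (adjusted p = 0.0995), with no mean trend (0.0578) and with quantile normalization, which took its log2 change to 0. Without either heterozygous library none of the list rose and 10 fell.

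Basement membrane genes and their receptors moved both ways, with 11 of 32 lower and 7 higher. Col15a1, a collagen next to basement membranes, fell from 500 and 470 to 102 and 95.3, with 489 and 476 in wildtype (-2.28 ± 0.12, adjusted p = 3.91e-06). The laminin chains differed in direction: Lama4 fell from 1368 and 1421 to 530 and 533 (-1.39 ± 0.10, adjusted p = 1.73e-05), while Lama2 rose from 545 and 630 to 863 and 929 (0.61 ± 0.11, adjusted p = 0.00619), a call lost without heterozygous replicate 1 (0.111). Tinagl1, a secreted matrix protein, rose from 2521 and 2478 to 7671 and 5629, with 3602 and 3295 in wildtype (1.39 ± 0.13, adjusted p = 0.000119). Agrn and Col8a1 changed by -0.90 ± 0.10 and -0.62 ± 0.08, and the fibronectin receptor subunit Itga5 by -0.46 ± 0.08, a call lost without either heterozygous library (0.108 and 0.0796). Without heterozygous replicate 1 or 2, 1 or 2 genes of the list rose and 7 or 6 fell.

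Of 33 tested matrix proteases and their inhibitors 12 fell and 3 rose. Mmp3, a stromelysin, measured 159 and 237 in knockout, 1393 and 1286 in heterozygous and 108 and 134 in wildtype (-2.78 ± 0.19, adjusted p = 1.59e-05), and Mmp12, the elastase of macrophages, measured 276 and 297, then 1584 and 1660, then 1142 and 1156 (-2.50 ± 0.10, adjusted p = 1.13e-06). Mmp3, Mmp10, Mmp12 and Mmp13, all on chromosome 9, fell by 2.78, 1.55, 2.50 and 1.67 on the log2 scale. Mmp16, a membrane-bound protease, rose from 334 and 352 to 810 and 783, with 334 and 328 in wildtype (1.21 ± 0.11, adjusted p = 6.76e-05). Heterozygous and wildtype thus had like levels for Mmp16 and differed widely for Mmp3. Leukocytes also transcribe Mmp9 and Mmp12, and their part in those falls was not tested.

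Signalling pathways showed no common direction. In Wnt signalling 8 of 43 tested genes rose and 10 fell, and their median was -0.03. The secreted inhibitor Sfrp1 fell from 7620 and 7418 to 2224 and 1864, with 3334 and 3364 in wildtype (-1.88 ± 0.10, adjusted p = 3.91e-06), and the receptor Ror1 fell from 1073 and 1159 to 405 and 335, with 1012 and 1054 in wildtype (-1.60 ± 0.12, adjusted p = 2.23e-05). Both inhibitors and agonists were among the genes that moved: the inhibitor Frzb fell by 1.12, the ligand Wnt5a rose from 1669 and 1635 to 2651 and 2794 (0.72 ± 0.09, adjusted p = 0.000457), and the R-spondin receptor Lgr6 rose from 102 and 92.6 to 392 and 275 (1.74 ± 0.19, adjusted p = 0.000295). In TGF-beta and BMP signalling 4 of 46 rose and 5 fell, against 4.35% and 8.18% of all tested genes. The BMP-responsive Smad9 rose from 620 and 631 to 1118 and 1057 (0.80 ± 0.10, adjusted p = 0.000555) and the BMP antagonist Nog from 68.4 and 72.1 to 175 and 131 (1.09 ± 0.20, adjusted p = 0.00675), while the activin subunit Inhbb fell from 922 and 755 to 501 and 381 (-0.93 ± 0.15, adjusted p = 0.003). Nog lost its call without heterozygous replicate 1 or 2 (0.0829 and 0.0628) and Inhbb without replicate 1 (0.0641), and without these replicates in turn 1 gene of that list rose and 0 or 2 fell. None of 9 tested Hedgehog genes passed in limma, edgeR or DESeq2, 3 had an unadjusted p under 0.05, and Ptch1, both receptor and target, measured 325 and 320 against 365 and 343.

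Of 51 tested growth factors and receptors 8 rose and 12 fell. Pdgfb, a ligand that recruits mural cells, measured 39 and 42.8 in knockout, 162 and 171 in heterozygous and 130 and 123 in wildtype (adjusted p = 4.6e-05), and Vegfa, the endothelial growth factor, measured 2070 and 1892, then 3070 and 3241, then 5559 and 5538 (-0.67 ± 0.09, adjusted p = 0.000809). Fgf2, a mitogen of smooth muscle, measured 1655 and 1535, then 764 and 848, then 706 and 763 (0.99 ± 0.10, adjusted p = 0.000209). Pdgfb and Vegfa were thus lowest and Fgf2 highest in knockout. Nrg1, a ligand of ErbB receptors, rose from 200 and 200 to 383 and 417 (1.00 ± 0.12, adjusted p = 0.0005), and Angpt2, an antagonist of the Tie2 receptor, fell from 723 and 691 to 266 and 259 (-1.43 ± 0.11, adjusted p = 2.51e-05). Of 25 insulin-like growth factor and imprinted genes 4 fell and 5 rose. Igf2, a fetal growth factor, measured 3686 and 2395, then 11560 and 11880, then 1774 and 1796 (-1.98 ± 0.17, adjusted p = 4.82e-05), and H19, the noncoding RNA next to it, measured 4364 and 2681, then 8922 and 8424, then 2149 and 2153 (-1.34 ± 0.18, adjusted p = 0.00108). Igf1, which macrophages also make, fell from 2615 and 2801 to 762 and 722 (-1.87 ± 0.09, adjusted p = 3.05e-06). All 3 were highest in heterozygous. Dlk1 and Grb10, which are imprinted, rose by 1.89 ± 0.14 and 0.69 ± 0.09.

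Proliferation genes leaned upward by small amounts. Of 54 tested, 10 rose, and none fell in limma, edgeR or DESeq2 or at an unadjusted p under 0.05. Of these genes 49 of 54 had a log2 change above 0, and the median was 0.27 against 0.00 over all genes. Rrm2, a subunit of ribonucleotide reductase, rose from 2776 and 2673 to 4368 and 3977, with 2606 and 2597 in wildtype (0.61 ± 0.09, adjusted p = 0.0014), and the replication helicase subunit Mcm4 rose from 1655 and 1668 to 2565 and 2366 (0.57 ± 0.09, adjusted p = 0.00244). The largest rise of the list was that of the cell cycle inhibitor gene Cdkn2a, from 305 and 296 to 590 and 412 (0.71 ± 0.17, adjusted p = 0.0236). Cdkn2a lost its call without either heterozygous library (0.157 and 0.18) or wildtype replicate 1 (0.0508), and Mcm4 without heterozygous replicate 1 (0.0518). The count of higher genes was 3 without either heterozygous library, 22 without knockout replicate 1 and, beside 1 lower gene, 32 without knockout replicate 2.

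Of 32 tested immediate early genes, 11 fell, and none rose in limma, edgeR or DESeq2, although 3 had a higher level at an unadjusted p under 0.05. The median was -0.31. Atf3, a stress-induced factor, fell from 237 and 203 to 44.4 and 59.9, with 132 and 107 in wildtype (-2.07 ± 0.20, adjusted p = 0.000128), and Fos fell from 328 and 296 to 190 and 153 (-0.86 ± 0.16, adjusted p = 0.00726). The count of lower genes was 1 or 4 without heterozygous replicate 1 or 2 and 18 without knockout replicate 1. Fos lost its call without either heterozygous library (0.112 and 0.0587), and Atf3 passed in all 18 alternatives. Of 33 hypoxia and glycolysis genes 7 fell and 3 rose, with a median of -0.04. The hypoxia-inducible factor Epas1 fell from 752 and 747 to 388 and 302 (-1.13 ± 0.13, adjusted p = 0.000387), and the carbonic anhydrase Car12 rose from 30.1 and 25.2 to 74.3 and 81.9 (1.47 ± 0.23, adjusted p = 0.00242).

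Markers of other cell types differed between the groups as well. Of 9 tested mesothelial markers 7 rose, none fell in limma, edgeR or DESeq2 or at an unadjusted p under 0.05, and their summed count was 4554 and 3989 in knockout, 2198 and 2419 in heterozygous and 4984 and 5126 in wildtype. Lrrn4 and Msln, proteins of the mesothelial lining, rose from 248 and 304 to 932 and 727 (1.58 ± 0.15) and from 265 and 298 to 623 and 651 (1.18 ± 0.11). The heterozygous libraries were thus the low ones, and Wt1 and Tbx18, which mesothelium also expresses, did not pass. Low heterozygous sums were not particular to this list. Epithelial and lung markers summed to 702 and 604 in knockout, 392 and 332 in heterozygous and 593 and 605 in wildtype. Striated muscle markers summed to 7537 and 7018, then 5019 and 4862, then 8661 and 7364. Fibroblast and adventitial markers went down, 11 of 19 lower and 1 higher, although their sum was 25950 and 26964 in knockout against 26711 and 26873 in heterozygous, since S100a4, the 1 that rose, went from 6120 and 6319 to 10510 and 12650 (0.89 ± 0.10). Of 13 tested endothelial markers 2 rose and 2 fell: the VEGF receptors Kdr and Flt4 rose from 527 and 604 to 1153 and 1017 (0.94 ± 0.12) and from 1025 and 1086 to 2198 and 1881 (0.95 ± 0.12), while the receptor Flt1 fell from 1317 and 1529 to 660 and 570 (-1.21 ± 0.11), and Vwf fell from 91.2 and 83 to 38.1 and 36.7 (-1.20 ± 0.19). Cdh5 did not pass (0.12 ± 0.38). Of 4 adipose genes 2 fell, the lipase Lpl from 1835 and 1924 to 328 and 409 (-2.35 ± 0.14) and the fatty acid receptor Cd36 from 537 and 478 to 135 and 178 (-1.70 ± 0.15), both of which macrophages express too. Of 8 neural and Schwann cell markers 2 rose, Stmn2 and Gap43, and Ngfr fell. Vwf lost its call without heterozygous replicate 1 (0.0555), Gap43 without either heterozygous library (0.0770 and 0.114) and Ngfr without any library other than knockout replicate 1 (0.0682 to 0.268). The part of other cell types in the changes of the named genes was not tested, beyond the summed levels given.

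**Figure D5:**
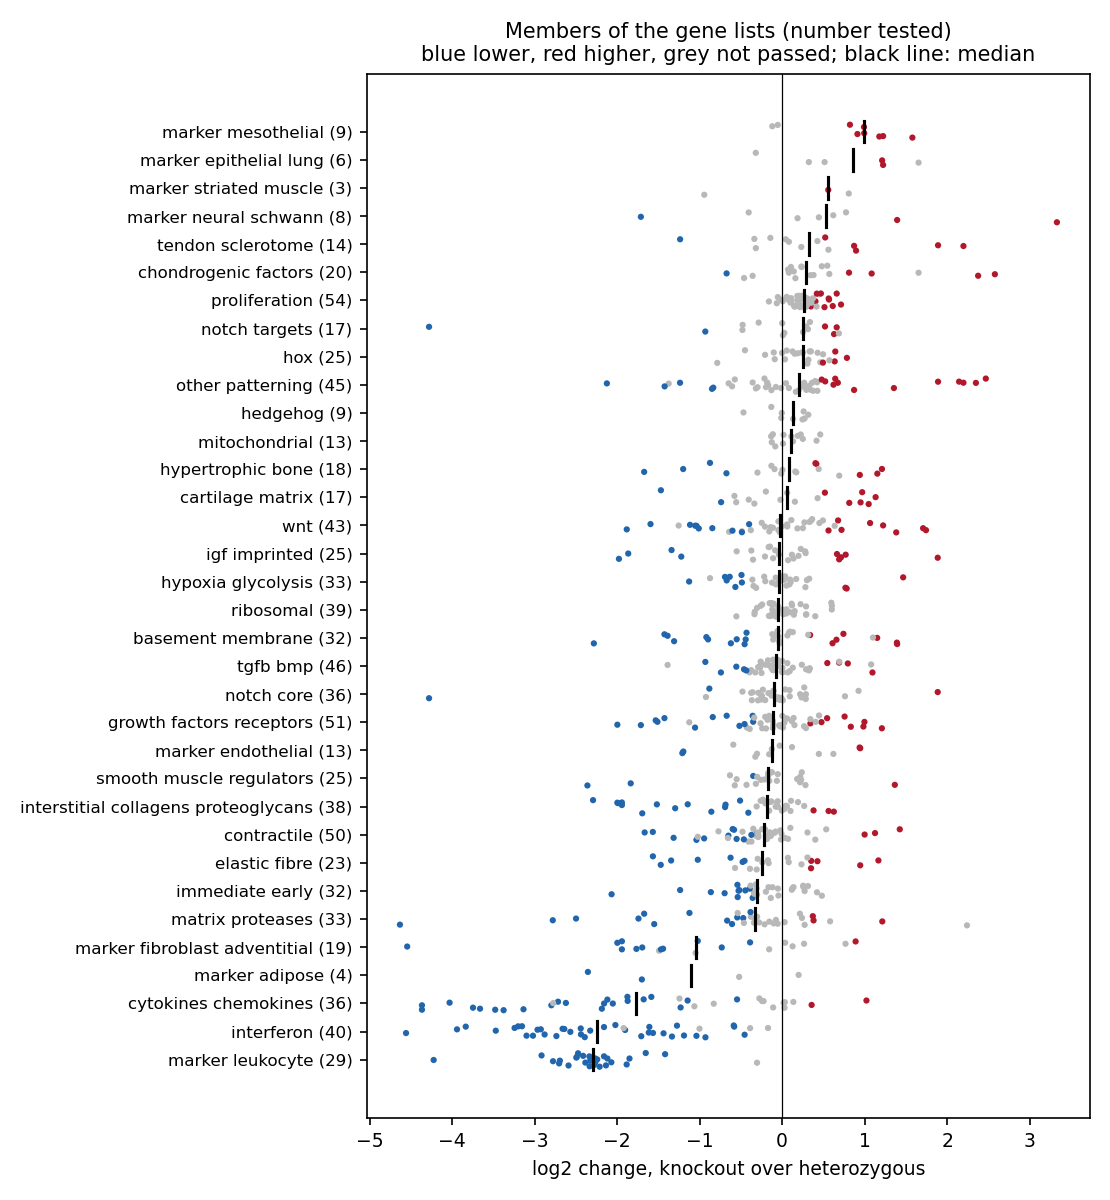
Log2 change of knockout over heterozygous (x axis) for each tested member of the gene lists with 3 or more tested members (number in brackets), sorted by median (black line); blue members fell, red rose and grey did not pass. Leukocyte and interferon lists lie almost wholly below 0 with medians of -2.30 and -2.24, the mesothelial median is 0.99, and the contractile median is -0.23.

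None of 39 ribosomal protein genes and none of 13 mitochondrial genes passed in limma, edgeR or DESeq2, with medians of -0.05 and 0.11. At an unadjusted p under 0.05 there were 4 ribosomal genes, 0 mitochondrial genes and 3837 of all tested genes. Without knockout replicate 2, however, 12 ribosomal genes rose and 16 fell, and 7 mitochondrial genes rose and 2 fell. By autosome, the share of tested genes that passed ran from 9.39% on chromosome 9 to 18.1% on chromosome 1, while 0 of 24 genes of the mitochondrial chromosome passed. It was 12.1% on chromosome 2, which carries Jag1. Among genes that rose, 1 had knockout libraries over 2-fold apart, and among genes that fell, 48 did. Of 334 named genes that passed, 180 kept direction and call under all 18 alternatives, and 52 lost the call only when a heterozygous library was left out.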

How the data were processed

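RNA of the 6 samples had been extracted with the RNeasy Micro kit and made into Illumina TruSeq libraries from 500 ng of total RNA, per the labels' protocols. The values deposited for each library are a signal, namely gene-level reads scaled by the authors with a single size factor for that library. In every library 100% of values were whole multiples of 1 step within 0.001 of a read, and 1 read was worth 0.774 to 1.22 scaled units. Adjusted p-values deposited by the authors were used only for the count of shared calls. The submitters' processing notes list mm9 as the build, with DESeq 1.16.0, HTSeq 0.5.4p3 and TopHat2 2.0.4, and say nothing of the tools' roles, of strand or of an annotation release, so genes with near-identical copies or overlapping partners are uncertain, and coordinates are given for promoters of GRCm38.p6 only.

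Scaled counts were tested with limma 3.58.1 in R 4.3.3 on log2(value + 1), with a mean trend, all 6 libraries in 1 fit without a replicate term (3 residual and 6.17 prior degrees of freedom) and Benjamini-Hochberg adjustment over 15781 genes, with 0.05 as threshold. The log scale understates changes of low genes. Samples were grouped by their titles. The method was tested on simulated data with 1 dispersion for all 6 libraries. That simulation does not cover the wider scatter of the knockout pair. Alternatives were another pseudocount, filter, variance trend, scaling or set of libraries, a replicate term, and edgeR 4.0.16 and DESeq2 1.42.0 on the recovered whole reads. The edgeR and DESeq2 fits on reads called 724 and 575 genes higher and 1230 and 1092 lower.

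Members, the 36 gene lists and the rules were chosen with earlier results of these data known, so none is independent evidence. Named genes were Jag1, Sox9, the 12 highest and 12 lowest changes among genes that passed (no overlap of groups, a mean of 50 or more in the higher group, no predicted models), up to 4 members per list with the smallest p, and further members that passed. Other members, such as Hes1, Notch3, Sox5 and Acta2, were named after their values were seen. Some genes that the rule names are not reported here.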

Additional observations from a re-analysis of the deposited data

How the results depend on the processing

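The comparison was repeated under 18 alternatives. Jag1 kept its direction and call in each, and the counts of lower leukocyte and interferon genes, 28 and 36 here, were 26 to 28 and 32 to 38. Genes higher in knockout, 657 here, numbered 379 with only the 4 compared libraries and 411 without a mean trend, and 169 to 2641 with 1 library left out, while genes lower, 1236 here, then numbered 616 to 2795. Lower contractile genes, 12 here, were 6 with only the 4 libraries and 4 to 28 with 1 left out, and higher cartilage matrix genes, 6 here, were 1 to 7. Sox9 kept its log2 change of 0.81 but not its call with no filter (adjusted p = 0.0509), only the 4 libraries (0.0925) or no mean trend (0.149), and had changes of 0.41 to 1.21 with 1 library left out. A fit without a knockout or heterozygous library holds 1 sample of that group, assumed to vary like the other groups. The genes named whose direction turned did not pass then: without knockout replicate 1 mt-Nd5, mt-Nd6 and mt-Nd4l (-0.029, -0.10 and -0.074, against 0.53, 0.55 and 0.91 without knockout replicate 2), without knockout replicate 2 Pparg (-0.0020, against 0.40 without replicate 1) and Heyl (-0.028), and without heterozygous replicate 2 Heyl and Hey1 (-0.045 and -0.019, against 0.72 and 0.59 without heterozygous replicate 1). The causes were not tested.

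Replicate numbers are shared by the groups, but no label says that they mark a litter or day, and only 2 numbers exist, so they were not taken as pairs. Over 12775 genes, deviations of libraries with the same number correlated at r = 0.13 between knockout and heterozygous, 0.261 between knockout and wildtype and 0.184 between heterozygous and wildtype. With the replicate block 947 genes rose and 1456 fell. With the block, Cnn1, Tap2, Notch3 and Oasl1 passed (adjusted p = 0.0268, 0.0330, 0.0312 and 0.0499). With 2 libraries a group, a p that misses the threshold does not show that levels were alike.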
